A study of Mus musculus with 13 samples.

Results

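Conventional CD4 T cells were 1774 of the 95563 cell barcodes with at least 1500 unique molecular identifiers (UMIs) in 13 mouse liver libraries, and 1774 of the 13716 barcodes that passed a T cell gate. They were chosen by raw UMIs: at least 2 from Cd3e, Cd3g and Cd3d together, at least 1 from Cd4, none from Cd8a, Cd8b1, Foxp3 or Trdc, and at most 1 from C1qa, C1qb and C1qc together. The gate genes are therefore no result here. The same gate with Cd8a or Cd8b1 in place of Cd4 held 5925 CD8 T cells, and 5158 gated T cells had no UMI of Cd4, Cd8a, Cd8b1, Foxp3 or Trdc. Only 28 Foxp3-positive CD4 cells were found, too few for a comparison with regulatory T cells.

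The study followed cholestatic liver injury by single-cell RNA sequencing of livers from C57BL/6J mice aged 6 to 12 weeks. The diet contained 0.1% of the dihydrocollidine compound DDC, a porphyrinogenic agent that injures small bile ducts, and mice ate it for 0, 3, 5, 9, 19 or 25 days (D0, D3, D5, D9, D19, D25). A diet stop group (STOP) received DDC for 18 days and then recovered for 7 days. Every diet day was processed by 2 isolation protocols: protocol A sorted broad immune, endothelial, epithelial and stellate populations, and protocol B sorted cells of a stellate preparation, Cd45+ Itgax+ Cd64- cells, Epcam+ cells and Cd3e+ Lyve-1- cells at equal ratios. STOP was made with protocol B only. The D0 group ate no DDC and was otherwise of the same strain. For the comparisons, D3 and D5 formed early DDC and D9, D19 and D25 formed late DDC. The D19 library of protocol B carries day 18 in one of its labels. How many mice went into a library is not given in the sources used here, so p-values measure the spread between libraries only.

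CD4 T cells recognise peptides on MHC class II through the T cell receptor and the Cd4 co-receptor. They direct other immune cells through surface ligands such as CD40 ligand and through secreted cytokines, and they divide into naive and memory cells that recirculate and effector cells that stay in tissue. In the liver they gather in the portal tracts around bile ducts, where dendritic cells present antigen.

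Nearly all members came from protocol B, which gave 1731 cells in 7 libraries against 43 in the 6 protocol A libraries. The protocol B libraries held 104 members at D0, 108 at D3, 257 at D5, 210 at D9, 446 at D19, 186 at D25 and 420 at STOP. No protocol A library reached the minimum of 20 cells, with 1 to 18 members each. Gene comparisons therefore used protocol B alone, with 1 library at D0, 2 of early DDC and 3 of late DDC. At the edges of the gate, 43 members had exactly 2 Cd3 UMIs while 81 otherwise matching barcodes with 1 Cd3 UMI stayed outside, and 1036 members had exactly 1 Cd4 UMI.

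The libraries differed in depth and purity. The median UMIs per member were 2451 at D0 and 7024 at D3, with 3572 to 4740 elsewhere in protocol B, and the summed UMIs ran from 405167 to 2296535 per library. More than 3 UMIs from 27 markers of other lineages were found in 56.8% of members at D5 and in 19.4% to 28.8% at the other times. Doublets were not called. A Cd4 UMI was seen in 0% to 1.27% of biliary epithelial cells of the 5 protocol B DDC libraries, and in 10.3% to 36.6% of gated B cells there, with median depths of 7371 to 14257 UMIs in those B cells. Of all gated T cells in these libraries, 11.1% to 26.4% had a Cd4 UMI at median depths of 4402 to 7893, so single Cd4 UMIs alone did not set members apart from B cells. In the D0 library of protocol B, 3 of 27 biliary epithelial cells (11.1%), 2.58% of B cells and 6.33% of gated T cells had one. Of the 1774 member barcodes, 1 was shared between 2 libraries.

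The defining T cell genes were present in every library. Levels are given as UMIs of a gene per 1000000 UMIs summed over the members of a library (CPM). Trac, the constant region of the T cell receptor alpha chain, was at 612 CPM at D0, 618 at D3, 462 at D5, 606 at D9, 696 at D19, 759 at D25 and 728 at STOP. Zbtb7b, the ThPOK transcription factor that commits thymocytes to the CD4 lineage and was not used by the gate, was at 19.9 to 45.8 CPM in members and at 3.10 to 12.5 CPM in CD8 T cells. Zbtb7b did not overlap between the types, which sets members apart from CD8 T cells only. Cells with a UMI of Zbtb16 or Klrb1c, markers of natural killer T cells, were 31.7% of members at D0 and 8.1% to 13.9% in the other 6 protocol B libraries. These values go against the label conventional for part of the members, most at D0, so the cells are called CD4 T cells by the gate below. The gate asks only for no Foxp3 UMI, so regulatory T cells whose Foxp3 went uncounted were not kept out. Genes of regulatory T cells other than Foxp3 are given below. Gamma delta T cells, which carry Trdc, were likewise not kept out where Trdc went uncounted. A list of 8 genes of such cells, not used by the gate, summed to 116 CPM at D0, 12.0 to 40.5 in early and 28.2 to 33.6 in late DDC. In CD8 T cells it summed to 49.5, 32.0 to 35.1 and 46.4 to 66.4 CPM. The part of such cells in the levels below, Il17a among them, was not tested.

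Members made up 5.35% of gated T cells at D0 in protocol B (95% Clopper-Pearson interval 4.39% to 6.45%), 21.1% at D3, 11.5% at D5, 13.8% at D9, 19.6% at D19 and 9.77% at D25. STOP was at 13.9%. The single D0 library of protocol B was below all 5 DDC libraries of that protocol. The D0 library of protocol A was highest of its protocol at 20.7% (18 of 87 cells, interval 12.7% to 30.7%). The others there ran from 3.85% (1 of 26 cells) to 18.6% (8 of 43 cells), and the interval of each overlapped that of D0. The means below give every library the same weight. Over both protocols, the mean share was 12.9% ± 5.75 (SD, n = 10) on DDC and 13.02% ± 10.9 (n = 2) at D0, and the difference did not pass an exact two-sided permutation test within protocol (p = 1.0, with 0.0278 the smallest p possible). The mean on DDC minus D0 was 9.82 points in protocol B (exact permutation p = 0.167, the smallest possible) and -9.98 points in protocol A (exact permutation p = 0.333). Late DDC was at 11.7% ± 5.72 (n = 6) and early DDC at 14.9% ± 6.02 (n = 4), with exact permutation p = 0.37 for the difference of -3.22 points. In the D0 library of protocol B, 63.0% of gated T cells had no UMI of any of the lineage genes, and the shallowest library had the lowest share of protocol B and the deepest, D3, the highest. The part of depth in the share was not tested.

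**Figure D1:**
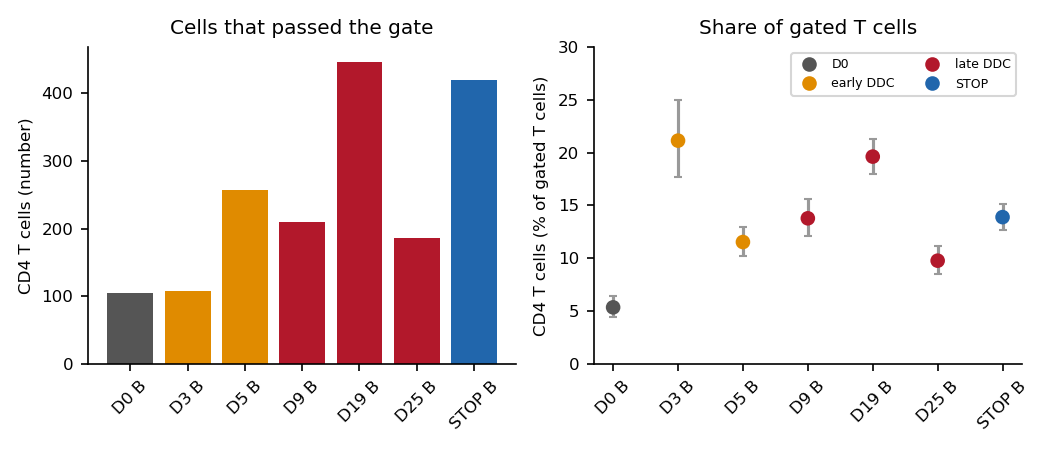
CD4 T cells that passed the gate in the 7 protocol B libraries, as a number of cells (left) and as a percentage of gated T cells with 95% Clopper-Pearson intervals (right). Colours mark D0, early DDC, late DDC and STOP; the D0 library is lowest at 5.35% and the D3 library is highest at 21.1%.

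To find what set these cells apart from their CD8 counterparts, the summed UMIs of both types were compared within the 6 atlas libraries of protocol B, with library as a block and gate genes left out. Of 11031 genes tested, 558 were higher in CD4 T cells (5.06%) and 752 lower (6.82%) by edgeR's quasi-likelihood test with Benjamini-Hochberg adjustment at 0.05.

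Cd40lg (chromosome X, 57212143 to 57224042, GRCm38) encodes CD40 ligand, through which helper T cells license dendritic cells and B cells. In CD4 T cells it was at 146 CPM at D0, 196 at D3, 84.7 at D5, 171 at D9, 178 at D19 and 290 at D25. In CD8 T cells it stayed between 6.41 and 17.03 CPM. The groups did not overlap, and the log2 fold change was 3.73 (SE 0.14, adjusted p = 9.56e-09, higher in 6 of 6 libraries).

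Tnfrsf4 (chromosome 4, 156013843 to 156016612), encodes the costimulatory receptor OX40. Its level in CD4 T cells was 44.4 CPM at D0, 77.7 at D3, 86.2 at D5, 123 at D9, 264 at D19 and 421 at D25, against 3.98 to 12.9 in CD8 T cells. The log2 fold change was 4.12 (SE 0.25, adjusted p = 9e-07 by edgeR). Tnfrsf4 thus separated the types in every library, and its level differed almost 10-fold among the CD4 libraries themselves.

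Maf (chromosome 8, 115682942 to 115707794), a transcription factor of interleukin-10 and interleukin-21 producing T cells, was also higher in 6 of 6 libraries. It was at 204 to 346 CPM in the CD4 T cells of 5 libraries and at 1070 CPM at D19, against 28.5 to 108 in CD8 T cells, and the difference was 2.09 on the log2 scale (SE 0.28, edgeR adjusted p = 0.000321). Without the D19 library the log2 fold change was 1.80 and the adjusted p was 0.000855.

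Icos, the inducible costimulator, was at 155 to 446 CPM in CD4 and 47.5 to 112 CPM in CD8 T cells (log2 fold change 1.42). Gata3, the transcription factor of type 2 helper cells that all CD4 T cells need in the thymus, was higher by a log2 fold change of 1.25. Rora, a nuclear receptor of type 17 and innate-like lymphocytes, was higher by 1.59, Slamf1, a self-binding costimulator, by 1.76 and Ctla4, the inhibitory receptor for B7 ligands, by 1.83. Each of the last 5 genes was higher in 6 of 6 libraries with an edgeR adjusted p of at most 0.000353. Izumo1r, the folate receptor 4 found on anergic and regulatory CD4 T cells, rose by 2.11, and Trat1, an adaptor that stabilises the T cell receptor complex, by 2.04.

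Over all genes tested, 5.06% were higher and 6.82% lower in CD4 T cells, and the counts by gene list stand beside these shares. The lists were chosen with earlier results of these data known, so counts by list are a description. Lists can share genes: Ctla4, Tnfrsf4 and Tnfrsf18 are in both the activation and the regulatory list. Of 20 activation and checkpoint genes 11 were higher and 1 was lower, Cd69, an early activation antigen (log2 fold change -1.12). Of 8 tested genes of the type 2 helper list 7 were higher, among them Il4 (3.14, and 2.35 with edgeR adjusted p = 0.182 with at least 2 Cd4 UMIs per cell), and 8 of 14 genes of the regulatory list without Foxp3 were higher with none lower, among them Il2ra (1.27, and 0.67 with adjusted p = 0.281 with at least 2 Cd4 UMIs) and Areg (4.37), the epidermal growth factor family ligand amphiregulin. Areg in CD4 T cells was at 29.6 CPM at D0, 0 at D3, 8.10 at D5, 82.1 at D9, 57.5 at D19 and 178 at D25, against 0 to 4.67 in CD8 T cells. Of 23 cell cycle genes 9 were higher and 2 lower, while 14 of 15 translation genes were lower.

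The levels of type 2 helper genes varied among the libraries. Ccr4, a chemokine receptor of type 2 helper and regulatory cells, was at 12.9 to 19.1 CPM in the CD4 T cells of the 6 libraries and at 0.516 to 3.37 CPM in CD8 T cells (log2 fold change 2.96, SE 0.36). Il1rl1, the receptor for the alarmin interleukin-33, was at 0 CPM at D0 and at 3.98 to 36.7 CPM on DDC, lowest at D3 and highest at D25, and higher than in CD8 T cells in 5 of 6 libraries (3.29, SE 0.46). Il13, a type 2 cytokine, had UMIs in members at D0 and D25 and in no other of the 6 libraries. The receptor gene Il4ra went the other way, with a log2 fold change of -0.62 (SE 0.12). Tnfsf11, the osteoclast and dendritic cell ligand RANKL, was higher by 2.54 in 6 of 6 libraries, and Zbtb16, the factor PLZF of innate-like T cells, by 1.37, which missed the threshold without the D3 or the D5 library (edgeR adjusted p = 0.0517 and 0.0569).

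Of 25 genes of the type 1 and cytotoxic list 9 were lower and 4 higher, beside 6.82% lower and 5.06% higher over all genes. Gzma, which encodes granzyme A, was lower by 2.55 on the log2 scale (SE 0.39, adjusted p = 0.000865 by edgeR), Prf1, perforin, by 1.54 and Gzmb, granzyme B, by 1.31. Klra7, a natural killer receptor of the Ly49 family, was at 1.05 to 9.87 CPM in CD4 and 29.7 to 67.0 in CD8 T cells. Cxcr3, the chemokine receptor of type 1 T cells, was one of the 4 genes of this list that were higher in CD4 T cells, with a log2 fold change of 0.58 (SE 0.11).

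Ccr7, the chemokine receptor that directs naive cells to lymph nodes, was lower in CD4 T cells in 6 of 6 libraries. It was at 98.0 to 321 CPM in CD4 and 284 to 770 CPM in CD8 T cells (log2 fold change -1.28, SE 0.10). Of the whole naive and central memory list of 15 tested genes, 6 were lower and 2 higher, beside the same 6.82% and 5.06% over all genes. Lef1, a transcription factor of naive T cells, did not pass the test, with a log2 fold change of -0.32 (edgeR adjusted p = 0.0755).

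**Figure D2:**
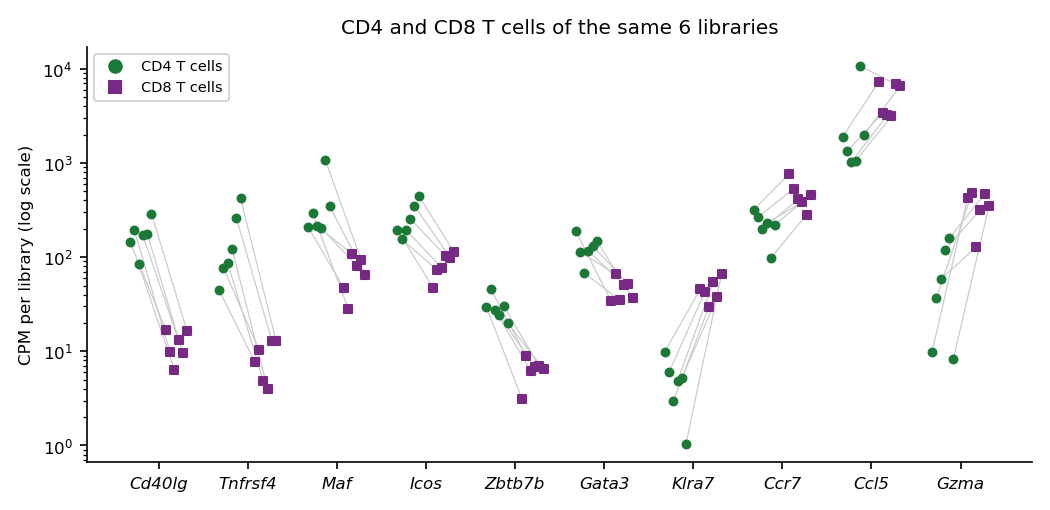
CPM in CD4 T cells (circles) and CD8 T cells (squares) of the same 6 protocol B libraries for 10 genes, on a log axis. Lines join the 2 values of a library; Cd40lg lies at 84.7 to 290 in CD4 and 6.41 to 17.03 in CD8 T cells without overlap, and Ccl5 is higher in CD4 than in CD8 T cells in 1 library only.

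Some called genes belong to other lineages. The biliary marker list had 3 of 8 genes called higher in CD4 T cells, and its summed level ran from 1790 to 3700 CPM in CD4 and 518 to 2410 CPM in CD8 T cells of late DDC, and 1020 to 1110 against 783 to 788 CPM in early DDC. The 3 genes, Krt18, Krt19 and Cldn7, all missed the threshold with at least 2 Cd4 UMIs per cell, without the D9 library and without the D19 library. The complement gene C3 and Igfbp5, made by epithelial and stromal cells, were among the largest increases, and Jchain, of plasma cells, and Col1a1, of fibroblasts, among the largest decreases. Jchain reached 365 CPM in CD8 T cells at D0 and 184 at D19, and at most 1.42 in the other 4 libraries. Without cells carrying more than 3 other-lineage UMIs, Col1a1 changed sign to a log2 fold change of 0.18. With at least 2 Cd4 UMIs per cell, Igfbp5 changed sign from 1.97 to -3.704 (edgeR adjusted p = 0.00233), and C3 went from 1.53 to 0.24 and did not pass (adjusted p = 0.817). Igfbp5 also missed the threshold without the D3 library (adjusted p = 0.149), without the D19 library (0.134) and without cells with natural killer T cell markers (0.112). By DESeq2 the log2 fold changes were -0.81 for Jchain (adjusted p = 0.935), -1.06 for Col1a1 (0.753) and 1.56 for Igfbp5 (0.512), so none of the 3 was called.

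Ccl5 (chromosome 11, 83525778 to 83530518), a chemokine of effector and memory T cells, was lower in CD4 than in CD8 T cells, with a log2 fold change of -1.46 (SE 0.25, edgeR adjusted p = 0.0022). It was at 1910 CPM at D0, 1340 at D3, 1030 at D5, 1060 at D9 and 2010 at D25 in CD4 T cells, but at 10760 CPM at D19, where CD8 T cells had 6876. D19 was the only library in which CD4 T cells exceeded CD8 T cells, and this order was noticed after the values were seen.

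The diet stages were compared next, over 9741 genes. No gene passed the test between late and early DDC by edgeR, neither higher (0%) nor lower (0%), while DESeq2 called 14 and 651 genes had p under 0.05 before adjustment in edgeR. The values below are therefore levels and fitted differences that did not pass the adjusted test. The median log2 fold change over all genes was 0.01. Among the DESeq2 calls, Krt18 and Onecut2, of epithelial cells, were higher. Lyz2, Tyrobp, Psap, Cybb and Mpeg1, of phagocytes and antigen-presenting cells, were lower, as were Bst2 and Ccnd1. DESeq2 called no gene of the activation, regulatory, naive or type 1 lists.

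Many genes of activation were at higher levels in each late library than in either early one. Of 19 tested genes of the activation and checkpoint list 17 had a positive log2 fold change, with a median of 0.89, and 11 lay above without overlap (Icos, Tnfrsf4, Pdcd1, Ctla4, Lag3, Tigit, Tnfsf11, Tox, Nfatc1, Prdm1 and Ikzf3) and none below. Over all genes tested, 17.6% lay above and 6.26% below in the same way. As the lists were chosen with earlier results of these data known, counts by list here and below are no independent test. Without the D19 library the list's median was 0.57, and 12 of its 18 tested genes lay above, where 22.1% of all genes did. Of the regulatory list without Foxp3, 10 of 14 genes had a positive log2 fold change, with a median of 0.81, and 7 lay above without overlap. Ctla4, Tnfrsf4 and Tnfrsf18 are in both lists, and Ctla4 and Tnfrsf4 count among the genes above in each. The median of the regulatory list was 0.50 without the D19 library, 0.51 without D3, 1.73 without D5 and 1.35 with at least 2 Cd4 UMIs per cell.

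Icos was at 195 CPM at D0, 155 at D3 and 195 at D5, then at 256 at D9, 352 at D19 and 446 at D25 (log2 fold change late against early 0.88, SE 0.29, edgeR adjusted p = 0.552). Tnfrsf4 was at 44.4 CPM at D0, 77.7 at D3, 86.2 at D5, 123 at D9, 264 at D19 and 421 at D25 (1.60, SE 0.46, adjusted p = 0.462). Ctla4 was at 76.5, 46.8, 126, 137, 292 and 258 CPM in the same order (1.26, SE 0.44, adjusted p = 0.587). For Ctla4, D9 lay close to D5 and well above D3, and D19 and D25 lay above D9.

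Pdcd1, the inhibitory receptor PD-1, was at 19.7 CPM at D0, 21.9 at D3, 11.1 at D5, 38.6 at D9, 121 at D19 and 72.4 at D25 (log2 fold change 2.16, SE 0.49, edgeR adjusted p = 0.30). Areg was among the 5 genes with the lowest p in its direction, fitted 4.38 higher on the log2 scale (SE 0.81, edgeR adjusted p = 0.201). Il18r1, a chain of the interleukin-18 receptor, was at 24.7 CPM at D0, 73.7 at D3, 75.8 at D5, 141 at D9, 137 at D19 and 166 at D25, and missed the threshold in late DDC against D0 (log2 fold change 2.35, edgeR adjusted p = 0.0509). It passed by DESeq2 (2.33, adjusted p = 0.0084), without the D9 library (2.38, 0.0194) and without other-lineage cells (2.25, 0.0453), and missed it without the D19 library (0.0797) and without cells with natural killer T cell markers (1.64, 0.157). With the D9 library left out, 33 of 9249 genes were called between late and early DDC, 13 higher and 20 lower. The higher genes included Pdcd1, Tnfrsf4, Areg, Lag3 and Ifng, and also Zc3h6 and the epithelial gene Onecut2. The lower genes included Cd209a and Siglech, of dendritic cells, Cybb and Psap, of phagocytes, and Ccnd1 and Xcl1.

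Of 15 tested genes of the naive and central memory list 13 had a negative log2 fold change, with a median of -0.35, and 1, Dapl1, lay below without overlap, where 6.26% of all genes did. Lef1 was at 185 CPM at D0, 351 at D3, 342 at D5, 387 at D9, 184 at D19 and 244 at D25, so D9 was the highest of all (log2 fold change late against early -0.47, SE 0.31). Ccr7 was at 321, 267, 199, 229, 98.0 and 222 CPM in the same order, lowest at D19. Without the D19 library the list's median was -0.12, without the D9 library -0.73 and with at least 2 Cd4 UMIs per cell -0.17. Of the type 1 and cytotoxic list 22 of 25 genes had a positive log2 fold change with a median of 0.43, and 5 lay above without overlap (Il12rb1, Il18r1, Il18rap, Fasl and Ctsw), where 17.6% of all genes did. Without the D19 library 14 of 24 genes of that list were positive, with a median of 0.26. Without the D9 library the median was 0.75 and 13 of 25 genes lay above, where 26.6% of all genes did, and with at least 2 Cd4 UMIs per cell the median was 0.66.

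**Figure D3:**
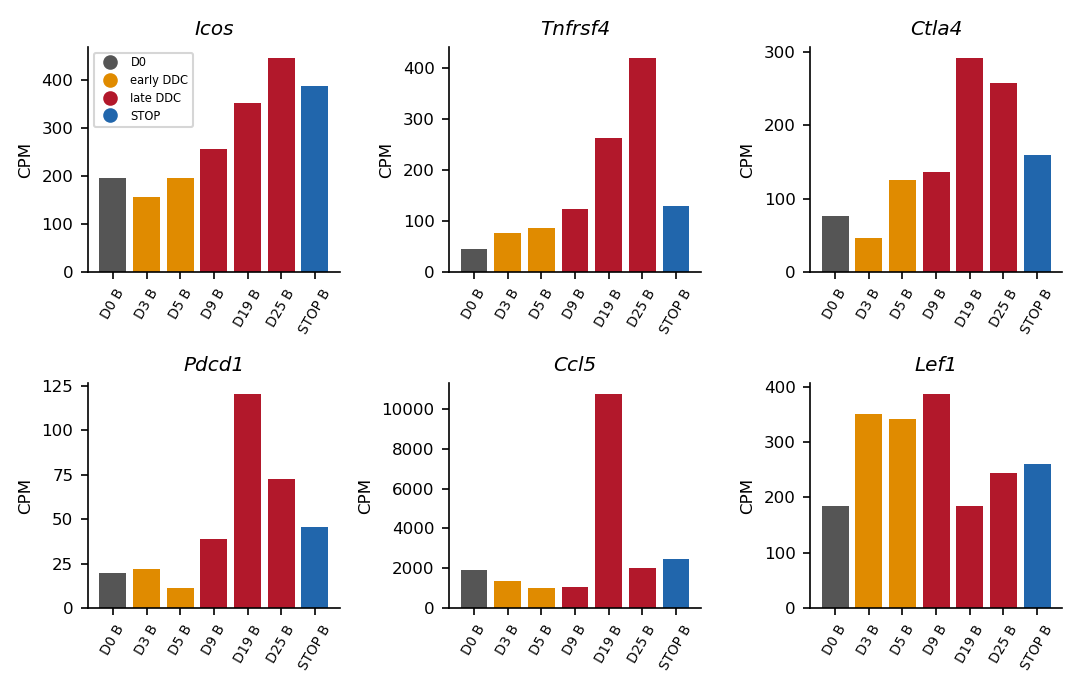
CPM of Icos, Tnfrsf4, Ctla4, Pdcd1, Ccl5 and Lef1 in the CD4 T cells of 7 protocol B libraries, 1 bar per library. The 4 receptor genes are highest at D19 or D25, Ccl5 stands at 10760 at D19 alone, and Lef1 is at 387 at D9 and 184 at D19.

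For Icos and Pdcd1 the share of cells with a UMI, after thinning to 1500 UMIs, was also higher in each late than in either early library. In all, this held for 10 of the 28 genes whose shares were compared, among them Trac, seen in 53.7% to 57.4% of early and 62.4% to 67.2% of late members, and 1 gene, Zbtb16, lay below. Over all genes tested, 15.3% lay above and 6.98% below in this way. Without thinning, 3 of the 28 lay above and 2 below, beside 4.77% and 12.1% of all genes, and Icos still lay above while Pdcd1 overlapped. After thinning, Icos was seen in 23.1% of members at D0, 17.6% at D3, 21.0% at D5, 26.7% at D9, 36.8% at D19 and 44.6% at D25, against 0% to 2.44% of gated B cells. Pdcd1 was seen in 1.56% to 2.78% of early and 5.24% to 17.5% of late members, and Mki67, a proliferation marker, in 0.926% to 1.56% of early and 3.81% to 5.38% of late members. In gated B cells, 0% to 10.3% had a UMI of Mki67, and 9.9% to 36.8% had one of Cd44, which also lay above. Whether such UMIs came from the cells themselves was not tested, and neither gene is read as a difference. None of the 28 genes whose shares were compared passed an exact permutation test, whose smallest p with 3 against 2 libraries is 0.1.

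Markers of other cell types differed with the stage. The biliary list of 8 genes summed to 91.3 CPM at D0, with 6 of its genes at 0, to 1020 to 1110 in early and to 1790 to 3700 in late DDC. The hepatocyte list of 13 genes summed to 341, 455 to 532 and 628 to 1050 CPM in the same order. The dendritic cell list of 12 genes summed to 21300 CPM at D0, 11000 to 20100 in early and 7670 to 11200 in late DDC, so early and late overlapped. The macrophage and monocyte list of 14 genes summed to 1200 CPM at D0, 1430 to 2210 in early and 774 to 973 in late DDC. The gate caps C1qa, C1qb and C1qc, which are in that list, so its sum is partly set by the gate. The B and plasma cell list of 8 genes summed to 511, 183 to 185 and 75.3 to 101 CPM in the same order. The biliary and hepatocyte sums were higher and the macrophage and B cell sums lower in each late than in either early library, while the sums of the neutrophil, endothelial, natural killer and stellate lists overlapped. The part of these in the stage differences was not tested. In the fit without cells carrying more than 3 other-lineage UMIs, the median log2 fold change was 0.88 for the activation list (0.89 with them), 0.62 for the regulatory list without Foxp3 (0.81) and -0.47 for the naive list (-0.35). For the type 1 and cytotoxic list it was 0.39 (0.43), with 17 of 24 genes positive in place of 22 of 25.

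Several of the genes with the lowest p between late and early DDC are known from other lineages. Krt18, a keratin of biliary epithelium, and Apoa2, an apolipoprotein of hepatocytes, had log2 fold changes of 1.18 and 2.46, and Cybb, Mpeg1, Ly86 and Psap, genes of phagocytes and antigen-presenting cells, had -1.52, -1.58, -1.36 and -1.44. Onecut2, a transcription factor of biliary and other epithelial cells, was at 5.16 to 14.9 CPM in early and 60.1 to 87.0 CPM in late libraries (2.78, edgeR adjusted p = 0.187). Ccnd1, cyclin D1, was at 81.7 to 112 CPM early and 26.6 to 37.8 late (-1.78).

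Against the single D0 library, late DDC had 13 genes higher (0.133%) and 20 lower (0.205%) by edgeR, and early DDC had 3 higher (0.0308%) and 1 lower (0.0103%). Much of this list belongs to other cell types. Clu, Krt18, Krt8, Krt19 and Cldn7, genes of biliary epithelium, and Rgs5, of pericytes, had no UMI at D0. Relative to a floor of 3 UMIs in the D0 library, late DDC was at least 168-fold higher for Clu, 36.9-fold for Krt18 and 28.9-fold for Krt8. Of the 8 biliary markers 6 were called higher, and Cd79a, Cd79b and Ighm, of B cells, were called lower. Rgs5, Cd79b and Ighm missed the threshold without the D19 library and without the D25 library. Cldn7 missed it without the D25 library (log2 fold change 9.29) and without cells with natural killer T cell markers (8.83). Without cells carrying more than 3 other-lineage UMIs, Clu (8.1) and Krt18 (6.01) missed it.

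Among genes that lymphocytes use, Xcl1, a chemokine for cross-presenting dendritic cells, was at 138 CPM at D0 and 5.24 to 21.7 in late DDC (log2 fold change -3.85, SE 0.59, edgeR adjusted p = 0.0444). Klrb1c, the NK1.1 receptor of natural killer and natural killer T cells, was at 158 CPM at D0, 31.9 at D3, 25.0 at D5, 49.9 at D9, 40.1 at D19 and 21.0 at D25 (-2.31, adjusted p = 0.0499). Klre1, another natural killer receptor, and Cd160, a receptor of innate-like and cytotoxic cells, were lower by 2.93 and 2.14 on the log2 scale. The D0 library stood above all 5 DDC libraries for all 4 genes. By DESeq2 the log2 fold changes were -3.88 for Xcl1, -2.35 for Klrb1c, -2.97 for Klre1 and -2.18 for Cd160. Without cells carrying more than 3 other-lineage UMIs they were -4.48, -3.38, -3.78 and -2.50 in the same order. With at least 3000 UMIs per cell none of the 4 passed. The log2 fold changes were then -3.525 for Xcl1, -1.724 for Klrb1c, -2.706 for Klre1 and -2.136 for Cd160. All 4 missed the threshold without the D19 library, with edgeR adjusted p of 0.0651 for Xcl1, 0.0817 for Klrb1c, 0.0783 for Klre1 and 0.0651 for Cd160. Without the D25 library they were 0.0922, 0.0797, 0.0944 and 0.0898, and Klrb1c also missed it without D3 (0.0507) or D5 (0.0588).

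The D0 library also differed in makeup. Klrb1c was seen in 20.2% of thinned members at D0 against 3.70% to 5.71% on DDC. Klrb1c helps define the cells with natural killer T cell markers, so this is not separate from the larger part of such cells at D0. The genes that stayed called higher in late DDC than at D0 without such cells were Clu, Krt18, Krt8 and Krt19, of biliary epithelium. Those that stayed called lower were Cd79a, Cd79b and Ighm, of B cells, and Psap, Rnase6 and Unc93b1. Without such cells, 10 genes were called between late DDC and D0 instead of 33. The log2 fold change of Xcl1 was then -4.83 (edgeR adjusted p = 0.121), that of Cd160 -2.07 (adjusted p = 0.198) and that of Klre1 -1.37 (adjusted p = 0.614), so none of the 3 passed. Without cells carrying other-lineage UMIs 192 genes were called, of which 15 were among the 33. A difference from D0 therefore cannot be told apart from that 1 library.

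The members of the D19 library were split by Ccl5. This split and the genes below were chosen after the values were seen, so they are a description without a test. After thinning to 1500 UMIs, 308 of 446 members (69.1%) had a Ccl5 UMI and 138 had none. In the protocol B libraries 5.88% to 26.5% of gated B cells and 2.33% to 16.6% of biliary epithelial cells had one too, so a single Ccl5 UMI does not mark a cell as expressing the gene. The members with a Ccl5 UMI had 1413 CPM of Maf against 303 in those without, 248 against 4.23 of Gzmk, granzyme K, and 48.5 against 1.41 of Eomes, a transcription factor of effector and memory cells. For Il10, the anti-inflammatory interleukin-10, the levels were 114 and 1.41 CPM, and for Il21, a helper cytokine for B cells, 30.9 and 0.

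Rgs1, a regulator of chemokine signalling found in tissue T cells, and Pdcd1 were also higher in the D19 members with a Ccl5 UMI, at 1425 against 402 CPM and at 162 against 28.2 CPM. Tcf7, the transcription factor TCF-1 of naive and memory T cells, was lower, at 159 against 481 CPM. The same split in the other 6 protocol B libraries gave Rgs1 higher in 6 of 6, at 516 to 1160 CPM with and 177 to 372 without a Ccl5 UMI, and Tcf7 lower in 6 of 6, at 170 to 378 against 285 to 737 CPM. Maf was higher in 5 of 6, at 186 to 569 against 145 to 320 CPM, Gzmk in 6 of 6, at 2.74 to 62.3 against 0 to 8.0 CPM, and Pdcd1 in 4 of 6. In the cells with a Ccl5 UMI of those libraries Eomes was at 0 to 2.54 CPM and Il21 at 0 to 4.23 CPM. Il10 in all members was at 79.2 CPM at D19 and at 0 to 12.3 CPM in the other 6 libraries. By the same split Il10 was higher with a Ccl5 UMI in 2 of those 6 libraries and lower in 2, at 0 to 8.46 against 0 to 22.6 CPM.

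STOP was compared with D19 of protocol B, the end of the diet before recovery, with 1 library each and no test. Values are CPM with exact 95% Poisson intervals, which cover counting error only. Of 829 genes with at least 200 CPM in either, 36 were at least 2-fold higher at STOP with separate intervals (4.34%) and 29 at least 2-fold lower (3.5%). The chemokine genes, Maf and Tnfrsf4 were lower at STOP than at D19, whereas Icos and Cd40lg were not. D19 had the highest Ccl5 and Maf of the atlas libraries of protocol B, and Ccl5 at STOP was above the rest of them. Whether these differences come with recovery was not tested.

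Ccl5 was at 10760 CPM (10620 to 10890) at D19 and 2445 (2380 to 2511) at STOP, a log2 ratio of -2.14. Ccl4, an inflammatory chemokine, had a log2 ratio of -1.76, its neighbour Ccl3 of -1.30 and Maf of -1.43. Tnfrsf4 was at 264 CPM (243 to 286) at D19 and 130 (115 to 146) at STOP. Ctla4 went from 292 to 160 CPM, under the 2-fold limit.

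Icos was at 352 CPM (328 to 377) at D19 and 388 (362 to 415) at STOP, with intervals that overlap. Cd40lg was at 178 and 281 CPM, and Ifng, which encodes interferon-gamma, at 137 (122 to 153) and 311 (288 to 335). The interferon-induced genes Ifi27l2a and Bst2 had log2 ratios of 1.18 and 1.10, and the heat shock genes Hspa1b and Hsp90aa1 of 2.84 and 1.14. Within CD8 T cells of the same libraries, Ccl5 was at 6876 CPM at D19 and 18240 at STOP and Maf at 94.4 and 529 CPM, so the order of the 2 libraries was opposite to that in CD4 T cells.

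The largest changes at STOP were in genes of other lineages. Col3a1, Mgp and Dcn, of fibroblasts, had log2 ratios of 7.10, 6.29 and 4.46, and Fabp1, of hepatocytes, of 6.39. Krt18 and Clu were lower, with -2.88 and -2.24. The stellate and fibroblast list summed to 41.4 CPM at D19 and 959 at STOP, the biliary list to 1794 and 537, and the dendritic list to 7672 and 16107. Their part in the other differences was not tested.

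**Figure D4:**
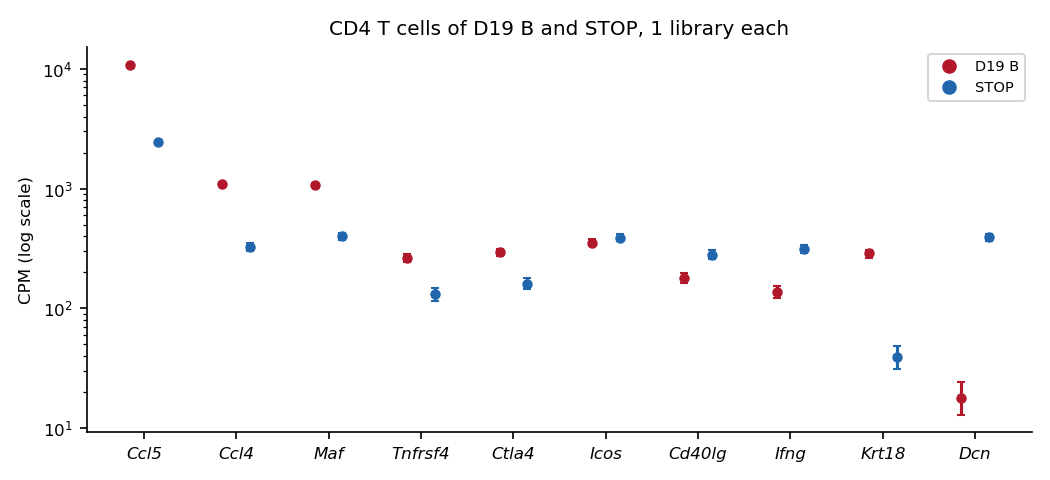
CPM of 10 genes in the CD4 T cells of D19 and STOP, 1 library each, on a log axis with exact 95% Poisson intervals for counting error. Ccl5 lies at 10760 at D19 and 2445 at STOP, while Icos has overlapping intervals.

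Il17a, the type 17 cytokine interleukin-17A, was sparse in the members. It was at 0 CPM at D0 and D3, 44.9 at D5, 4.02 at D9, 2.18 at D19, 13.6 at D25 and 89.8 at STOP. Tbx21, the type 1 factor T-bet, was at 16.2 to 35.7 CPM in all 7 libraries without order by stage (log2 fold change late against early 0.13, SE 0.36). Il4 was at 98.7 CPM at D0 and 2.99 to 23.6 afterwards. Cxcr6, a receptor of liver-resident lymphocytes, was at 0 UMIs in the members and near 0 in whole libraries, so its level cannot be read from these counts.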

How the data were processed

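Per the labels, 13 10x Genomics 3′ v3.1 libraries were made from mouse liver; kallisto and genome build GRCm38 are named in the submitters' processing notes, and versions and annotation are not given in the sources used here. The deposited matrices hold raw UMI counts per barcode for 55353 gene symbols. Barcodes with at least 1500 UMIs were gated as stated, and counts were summed per library with at least 20 members. The members and gene lists were chosen with earlier results of these data known. edgeR 4.0.16 (R 4.3.3; TMM, filterByExpr, quasi-likelihood test, Benjamini-Hochberg at 0.05) was used, with DESeq2 1.42.0 as an alternative; CPM in the text are plain, and fold changes carry TMM. The SE is the log2 fold change divided by the square root of F. Simulated counts, in which 200 genes were shifted by 2 on the log2 scale, served to check the fits. Of these genes, 67.0% were recovered for late against early DDC, 30.5% for late DDC against D0 and 25.0% for early DDC against D0. For CD4 against CD8 T cells 92.5% were recovered. A gene that was not called between stages or against D0 may therefore still differ. The named genes were the 12 with the largest change per direction among called genes whose mean log2 CPM reached 5, or the 5 with the lowest p where fewer than 5 were called, list members, and genes named from the values as stated. Gene positions are from GENCODE vM21. A planned comparison among the members and some single genes are not reported here.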

Additional observations from a re-analysis of the deposited data

How the results depend on the processing

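The stage comparisons rest on 2 early and 3 late libraries of protocol B, and 1 library stands for D0. Between late and early DDC edgeR called 0 genes, DESeq2 14, edgeR without a filter on low counts 218 and with at least 2 Cd4 UMIs 1, and leaving out 1 library gave 0 to 33. Against D0, the 33 late genes became 166 with DESeq2, 688 without a filter, 14 with at least 3000 UMIs per cell, 10 without natural killer T marker cells and 192 without other-lineage cells (6 to 169 with 1 library left out), and the 4 early genes became 46 with DESeq2, 278 without a filter and 1 without natural killer T marker cells (0 to 13). CD4 against CD8 called 726 with at least 2 Cd4 UMIs (758 to 1324 with 1 library left out). The CD4 share of T cells, DDC against D0, was 3.74 points with at least 2 Cd4 UMIs (-7.75 to 7.59 with 1 library left out), and late against early ran from -5.44 to -1.13. Of 28 marker shares 11 did not overlap between early and late DDC, where 15.3% of all genes lay above and 6.98% below. Without thinning 5 did not overlap, where 4.77% lay above and 12.1% below. With thinning and 1 library left out it was 12 to 20, for which the share over all genes is not given here. By CPM, the share of all genes lying above was 17.6% with all libraries and 22.1% to 36.8% with 1 early or late library left out. For STOP, 59 genes were higher and 48 lower with at least 2 Cd4 UMIs. Directions turned without other-lineage cells for Spp1 against D0 (-1.03), and for Col1a1 (0.18), Col1a2 (0.32) and Krt18 (-0.021) against CD8, and with at least 2 Cd4 UMIs for Igfbp5 against CD8 (-3.704). The causes were not tested. No comparison with Foxp3-positive cells was run, and D0 contrasts could not be fitted without the D0 library or with at least 2 Cd4 UMIs. No paired analysis was possible because the labels give the diet groups no replicate numbers to pair them by, whereas CD4 and CD8 T cells were compared within libraries.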
